A study of Mus musculus with 6 samples.

Results

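On chromosome 15, 9 genes (Npcd, Cbx6, D730005E14Rik, Apobec3, Cbx7, Pdgfb, Tnfrsf13c, Nfam1 and Bik) lie within 3 Mb of Srebf2, the gene for the transcription factor SREBP2, and differed strongly between regulatory T cells (Tregs) with and without it. They were picked by symbol from a table of 24421 genes because of their position and the size of their change in this same comparison, so their fold changes describe how they were chosen and are given with no test. All 9 were among the 11932 genes with enough counts to be tested.

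The RNA came from Tregs of mouse spleen and lymph nodes. These are suppressive CD4 T cells that depend on the transcription factor Foxp3. The 3 Srebp2WT libraries (replicates 1, 3 and 5) came from animals labelled Srebp2WT/WT-Foxp3YFPCRE+/+, and the 3 Srebp2cKO libraries (replicates 6, 7 and 8) from animals labelled Srebp2FL/FL-Foxp3YFPCRE+/-. Both groups thus carry a yellow fluorescent protein and Cre recombinase at Foxp3, which restricts Cre to cells that use that gene. Floxed Srebf2 alleles were present in Srebp2cKO alone. The dose of the Cre allele differed together with the Srebf2 genotype. The labels give genotypes at Srebf2 and Foxp3 only. Loss of SREBP2, the dose of Cre and any sequence that travels with the floxed alleles on chromosome 15 therefore cannot be told apart here. No source used here states age, sex, strain background or the number of animals behind a library. P-values therefore measure the spread between these libraries, which may be technical.

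The libraries held 13918321 to 17249898 counts. Srebf2 itself had 3043, 2980 and 2548 counts in the 3 Srebp2WT libraries against 187, 197 and 183 in the 3 Srebp2cKO libraries (listed by rising replicate number, here and below), so the targeted gene went with the labels in every library. Summed Treg markers (8 genes, Foxp3 and Il2ra among them) stood at 4415 to 4685 CPM (counts scaled to the library total) in Srebp2WT and 4275 to 4427 in Srebp2cKO (exact two-sided permutation p = 0.2, where 0.1 is the smallest that 3 against 3 allows). Within that sum Il2ra rose (log2 fold change 0.41, edgeR adjusted p = 0.0101), Tnfrsf18 fell (-0.39, adjusted p = 0.0438), and Foxp3 did not pass (-0.06, adjusted p = 0.611).

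The 9 genes belong to several systems. Cbx6 and Cbx7 encode chromodomain subunits of Polycomb repressive complex 1 (PRC1), which reads trimethylated histone H3 and holds developmental genes silent. Apobec3 is the cytidine deaminase with which mice restrict retroviruses. Tnfrsf13c is the receptor for the B cell survival factor BAFF, Nfam1 is a membrane receptor with an activation motif (ITAM) that signals to NFAT in B and myeloid cells, Bik is a BH3-only protein that opposes BCL2 survival proteins, and Pdgfb is a growth factor for mesenchymal cells.

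In genome order the genes formed a tight group and a loose one. Npcd, Cbx6, D730005E14Rik, Apobec3, Cbx7 and Pdgfb followed each other without any other tested gene between them, with starts 2.36 to 2.15 Mb before the start of Srebf2 (a start is the lowest coordinate of a gene; positions from GENCODE M21 on GRCm38, the Ensembl-based gene models for the mm10 build). All 6 were lower in Srebp2cKO. Tnfrsf13c, Nfam1 and Bik started 0.07, 0.85 and 1.38 Mb beyond the start of Srebf2, and all 3 were higher. Between Pdgfb and Srebf2 lay 31 other tested genes, none with an absolute log2 fold change of 1.

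Several of these gene models share sequence, which limits what a count can mean. Npcd is annotated as a transcript that begins in Cbx6 and continues into Nptxr, a neuronal pentraxin receptor gene. Of the 1453 exon bases of Npcd, 563 lay in exons of Cbx6 and 890 in exons of Nptxr, and 0 belonged to Npcd alone. The first 537 of 1407 coding bases of transcript Npcd-202 matched Cbx6. The stretch below is shown because it is the join between these parts. It holds the last 75 bases shared with Cbx6 in capitals, ending at base 79828688 of chromosome 15, and the next 75 in lower case, beginning at base 79794475 (GENCODE M21 transcript, GRCm38, minus strand).
Npcd-202 coding sequence across the join: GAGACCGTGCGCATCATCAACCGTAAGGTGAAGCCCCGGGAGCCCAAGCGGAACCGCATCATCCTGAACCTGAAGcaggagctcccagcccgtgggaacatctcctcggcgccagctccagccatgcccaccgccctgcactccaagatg

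D730005E14Rik is a long non-coding RNA gene at the start of Apobec3. GENCODE places it on the plus strand, like Apobec3, and RefSeq on the minus strand. Of its 3589 exon bases, 676 overlapped Apobec3 exons, and 16.0% of the 50-base words of its transcript were found in transcripts of Apobec3. Apobec3 and Cbx7 overlapped by 100 exon bases at their far ends. Pdgfb, Tnfrsf13c, Nfam1 and Bik shared no exon base with another gene. No source used here states whether counting used strand, so overlapping reads could have been assigned to either gene.

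Promoter windows from RefSeq (GRCm38.p6) were matched for 6 of the 9 genes, which left Npcd, Pdgfb and Bik without one. A window here is the 250 bases before the RefSeq transcription start, read on the RefSeq strand of the gene. Windows are shown for the genes of the tight group that have one and for Tnfrsf13c. The reason is that the members changed beside the gene of a DNA-binding factor. The D730005E14Rik window follows the RefSeq minus strand and lies just past the highest GENCODE coordinate of that gene. Motifs of 3 kinds were searched on both strands, namely TCACNCCAC (the core of the sterol regulatory element that SREBP proteins bind), CACGTG (the E-box that SREBP proteins can also bind) and CCAAT (the box of their partner NF-Y). Capitals mark the matches. For Apobec3 the earlier of its 2 windows is shown.
Cbx6, chr15:79834334-79834583, minus strand: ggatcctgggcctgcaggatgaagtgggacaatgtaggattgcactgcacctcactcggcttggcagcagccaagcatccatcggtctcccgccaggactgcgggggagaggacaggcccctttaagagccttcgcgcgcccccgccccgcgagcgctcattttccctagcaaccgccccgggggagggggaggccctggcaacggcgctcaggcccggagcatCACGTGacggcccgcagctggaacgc
D730005E14Rik, chr15:79893139-79893388, minus strand: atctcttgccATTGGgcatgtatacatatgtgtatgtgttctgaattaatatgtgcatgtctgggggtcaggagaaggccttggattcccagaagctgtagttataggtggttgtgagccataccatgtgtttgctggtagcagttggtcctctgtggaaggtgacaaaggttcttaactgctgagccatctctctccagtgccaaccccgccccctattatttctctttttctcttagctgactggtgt
Apobec3, chr15:79892158-79892407, plus strand: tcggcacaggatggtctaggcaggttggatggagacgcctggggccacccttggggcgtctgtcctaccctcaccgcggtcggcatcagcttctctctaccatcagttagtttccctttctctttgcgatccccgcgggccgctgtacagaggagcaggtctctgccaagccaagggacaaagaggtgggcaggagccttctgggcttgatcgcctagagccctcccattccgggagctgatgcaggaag
Cbx7, chr15:79932647-79932896, minus strand: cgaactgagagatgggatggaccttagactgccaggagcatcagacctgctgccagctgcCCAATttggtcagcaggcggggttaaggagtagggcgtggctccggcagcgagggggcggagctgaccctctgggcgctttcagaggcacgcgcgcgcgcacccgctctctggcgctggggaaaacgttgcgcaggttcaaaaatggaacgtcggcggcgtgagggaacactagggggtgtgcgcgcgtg
Tnfrsf13c, chr15:82224381-82224630, minus strand: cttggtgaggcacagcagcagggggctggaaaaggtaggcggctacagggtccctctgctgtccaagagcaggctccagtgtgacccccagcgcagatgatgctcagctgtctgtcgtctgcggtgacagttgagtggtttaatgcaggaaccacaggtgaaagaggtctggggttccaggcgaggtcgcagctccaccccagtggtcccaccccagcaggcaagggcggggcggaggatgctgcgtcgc

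No window of these genes held TCACNCCAC, which was present in 1.05% of 32851 mouse windows of the same length. Cbx6 held CACGTG, starting 26 bases before its RefSeq transcription start, and 6.02% of all windows held this motif. CCAAT was found in D730005E14Rik and Cbx7 and in the later window of Apobec3, as in 33.8% of all windows. Among windows of tested genes, the shares were 0.967% for TCACNCCAC, 8.38% for CACGTG and 35.4% for CCAAT. The Tnfrsf13c window and the 3 windows of Nfam1 held none of these letters. A missing match says only that these letters are not in this window.

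Apobec3 was the most abundant of the 9 genes in Srebp2WT. Its counts were 4901, 4872 and 4275 without the deletion and 675, 797 and 830 with it. The groups were far apart, and the libraries within each were close to each other. Scaled by TMM library size (CPM of single genes here and below, while marker sums use library totals), the level was 303 ± 12.6 in Srebp2WT and 49.8 ± 1.53 in Srebp2cKO (mean ± SD, n = 3 libraries each, here and below), which makes a log2 fold change of -2.61 (SE 0.08) in edgeR.

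D730005E14Rik had the largest fall of the group. It was counted 777, 773 and 659 times in Srebp2WT but 10, 21 and 20 times in Srebp2cKO. The Srebp2cKO level of 1.09 ± 0.318 CPM was 2.28% of the Srebp2WT level of 47.7 ± 2.73 (log2 fold change -5.43, SE 0.16). Relative to the gene it overlaps, there were 15.9, 15.9 and 15.4 counts of D730005E14Rik per 100 counts of Apobec3 in Srebp2WT, and 1.48, 2.63 and 2.41 in Srebp2cKO. The transcript at the Apobec3 start was thus reduced more than Apobec3 in all 3 Srebp2cKO libraries.

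The Polycomb genes were lower by smaller folds. Cbx6 had 2193, 2341 and 1753 counts in Srebp2WT and 591, 630 and 659 in Srebp2cKO, or 135.6 ± 16.1 and 40.8 ± 2.50 CPM (log2 fold change -1.73, SE 0.10). Cbx7 had 3313, 3489 and 2742 counts in Srebp2WT and 1359, 1375 and 1637 in Srebp2cKO, or 206 ± 19.6 and 94.7 ± 5.59 CPM (log2 fold change -1.12, SE 0.09). Srebp2WT replicate 5 was the lowest of its group for both genes, yet stood well above every Srebp2cKO library. Cbx7 counts per 100 counts of Cbx6 were 149 to 156 in Srebp2WT and 218 to 248 in Srebp2cKO, so the balance between these paralogs moved toward Cbx7.

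Npcd followed Cbx6. It had 395, 406 and 266 counts in Srebp2WT and 113, 116 and 90 in Srebp2cKO, or 23.0 ± 4.36 and 7.01 ± 1.58 CPM (log2 fold change -1.72, SE 0.19). Npcd counts per 100 counts of Cbx6 were 18.0, 17.3 and 15.2 in Srebp2WT and 19.1, 18.4 and 13.7 in Srebp2cKO. These ranges overlapped. Nptxr, whose exons make up the rest of Npcd, had 16, 15 and 7 counts in Srebp2WT and 10, 0 and 6 in Srebp2cKO (log2 fold change -1.21, edgeR adjusted p = 0.276). Because every exon base of Npcd belongs also to Cbx6 or Nptxr, its count is uncertain as a measure of a separate transcript.

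Pdgfb closed the group at a low level. It had 43, 48 and 39 counts in Srebp2WT and 9, 6 and 6 in Srebp2cKO, or 2.81 ± 0.247 and 0.466 ± 0.170 CPM (log2 fold change -2.60, SE 0.33). From the summed counts the Srebp2WT level was 6.19 times the Srebp2cKO level, with an exact binomial 95% interval of 3.89 to 10.3 that covers counting error only. No source used here states that reads carried molecular identifiers, so they cannot be taken as independent molecules.

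**Figure D1:**
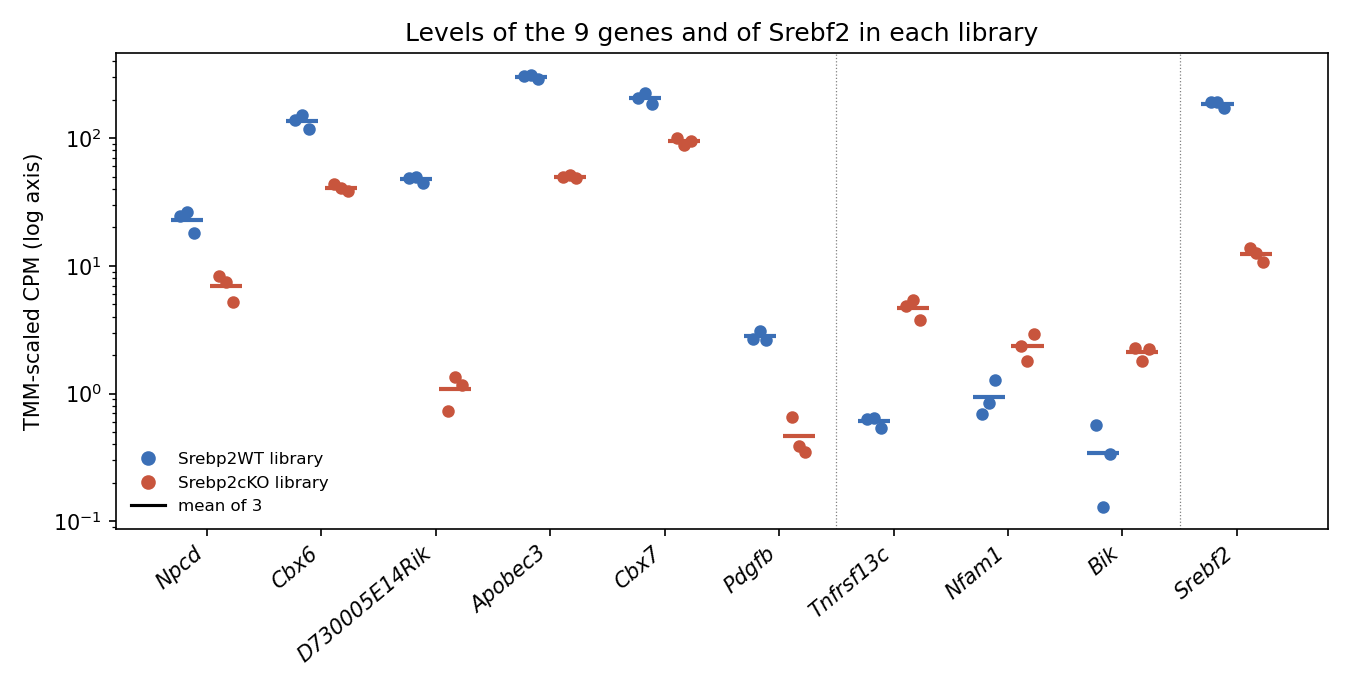
TMM-scaled CPM (log axis) of the 9 genes and of Srebf2, with a point for each of the 3 Srebp2WT and 3 Srebp2cKO libraries and a bar at each mean. The 6 genes to the left were lower and the next 3 higher in every Srebp2cKO library, and Apobec3 fell from 303 to 49.8 CPM.

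The genes beyond Srebf2 were scarce in Srebp2WT. Tnfrsf13c, which lies 16.4 kb past the end of Srebf2, had 10, 10 and 8 counts in Srebp2WT and 66, 83 and 64 in Srebp2cKO. Its level was 0.604 ± 0.0549 against 4.64 ± 0.831 CPM (log2 fold change 2.92, SE 0.29), with a ratio of summed counts of 7.61 (95% counting interval 5.11 to 11.7). Even the lowest Srebp2cKO library was 5.79 times the highest Srebp2WT library.

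Bik had 9, 2 and 5 counts in Srebp2WT and 31, 28 and 38 in Srebp2cKO, or 0.344 ± 0.218 and 2.10 ± 0.256 CPM (log2 fold change 2.57, SE 0.43). The ratio of summed counts was 6.06 (95% counting interval 3.55 to 11.0). The Srebp2WT libraries varied widely, but none reached the Srebp2cKO range.

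Nfam1 showed the smallest rise and the smallest separation. It had 11, 13 and 19 counts in Srebp2WT and 32, 28 and 50 in Srebp2cKO, or 0.938 ± 0.311 and 2.36 ± 0.554 CPM (log2 fold change 1.33, SE 0.34). The lowest Srebp2cKO library was 1.40 times the highest Srebp2WT library, and the ratio of summed counts was 2.56 (95% counting interval 1.78 to 3.73).

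In none of the 9 genes did the genotypes overlap, and all 9 passed a false discovery rate of 0.05 in edgeR. The log2 fold change of all 9 was also 1 or more in size. Among all tested genes 31.5% did not overlap, 6.61% passed (2.37% higher and 4.24% lower), and 1.83% passed with a change of that size (0.26% higher and 1.57% lower), but since the genes were chosen on this contrast, nothing is read from that difference. Nfam1 did not pass in 5 of the 6 fits that left out 1 library, all but the fit without Srebp2WT replicate 5, whereas the other 8 genes passed in all 6. In bulk RNA, fewer cells that express a gene and less RNA per cell cannot be told apart.

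Per kilobase of annotated exon, Apobec3 (32.1 ± 1.34 CPM per kb) and Cbx7 (31.8 ± 3.03) led in Srebp2WT and did not differ beyond their spread. Lengths here are unions of all annotated exons, 9454 bases for Apobec3 and 6487 for Cbx7. Their longest transcripts hold 3053 and 6057 bases, so the standing of these 2 genes in either genotype depends on the length used. Npcd (15.8 ± 3.00), D730005E14Rik (13.3 ± 0.761) and Cbx6 (12.8 ± 1.52) followed, also within their spread of each other. Pdgfb (0.675 ± 0.0593), Tnfrsf13c (0.295 ± 0.0268), Bik (0.216 ± 0.137) and Nfam1 (0.118 ± 0.0390) were much lower, and the spread of Bik reached its neighbours in this order. In Srebp2cKO, Cbx7 led alone by exon union, at 14.6 ± 0.862 CPM per kb. Apobec3 (5.27 ± 0.161), Npcd (4.82 ± 1.09) and Cbx6 (3.85 ± 0.235) came next, followed by Tnfrsf13c (2.27 ± 0.406) and Bik (1.32 ± 0.161). D730005E14Rik (0.302 ± 0.0886) and Nfam1 (0.296 ± 0.0696) did not differ beyond their spread, and Pdgfb was lowest at 0.112 ± 0.0408. By mean level over all 6 libraries, Pdgfb and the 3 higher genes were in the lowest 13.0% of tested genes.

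**Figure D2:**
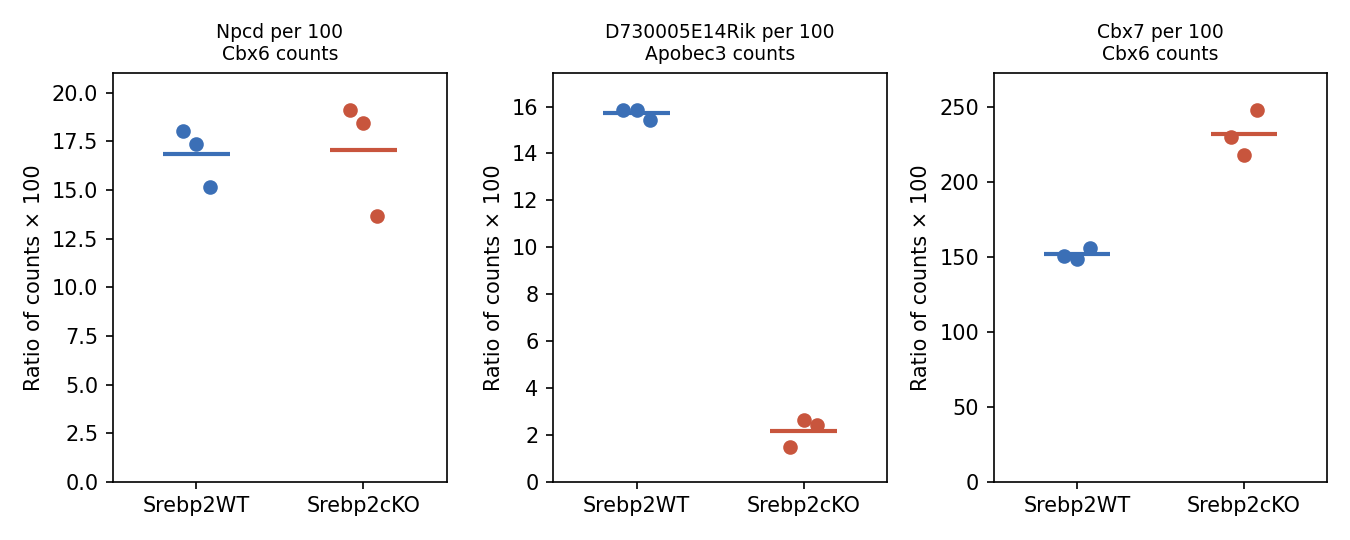
Ratios of counts, multiplied by 100, for 3 pairs of genes in each of 6 libraries (points) with the mean of 3 (bars); each axis starts at 0. Npcd kept 13.7 to 19.1 counts per 100 of Cbx6 in both genotypes, D730005E14Rik dropped from at least 15.4 to at most 2.63 per 100 of Apobec3, and Cbx7 moved from at most 156 to at least 218 per 100 of Cbx6.

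Other genes of the stretch had smaller fold changes, which follows in part from choosing the 9 genes by the size of their change. The share below leaves out those 9 genes, all of which passed, so it does not describe the whole stretch. From Npcd to Bik there were 48 other tested genes besides Srebf2, of which 2 passed (4.17%, against 6.61% of all tested genes), and 26 had negative and 22 positive log2 fold changes. The smallest change among the chosen genes was that of Cbx7 (-1.12). The largest among the others were Rnu12, a spliceosomal RNA gene (0.75), Cenpm (-0.63) and Cyp2d22 (0.61), and none of these passed (edgeR adjusted p = 0.132, 0.355 and 0.0989). Just outside, Nptxr had a log2 fold change of -1.21 on few counts, as given above. Baiap2l2, 2.89 Mb before Srebf2, had -1.32 on 41 and 16 counts summed over each genotype (adjusted p = 0.118). Both values exceed that of Cbx7 in size, and neither passed.

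Of the genes next to the members that are neither members nor Srebf2, 1 passed. Beside Pdgfb, the ribosomal protein gene Rpl3 stood at 877 ± 35.0 CPM and fell to 698 ± 45.5 (log2 fold change -0.33, SE 0.08, adjusted p = 0.0369). Gm20324 and Serhl, on either side of Nfam1, had log2 fold changes of 0.10 and -0.24, and Ttll1 and Mcat, on either side of Bik, of 0.10 each (adjusted p = 0.704, 0.424, 0.778 and 0.741). Tnfrsf13c had Srebf2 on one side and Cenpm on the other.

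Within 3 Mb of the start of Srebf2 and apart from the 9 genes, 2 of 73 tested genes rose and 2 fell (5.48% called), with a median log2 fold change of -0.02 against 0.00 over all tested genes. Grap2, a T cell receptor adaptor, rose by a log2 fold change of 0.36 (SE 0.07, adjusted p = 0.0222), with 398 ± 20.5 CPM in Srebp2WT and 513 ± 19.0 in Srebp2cKO. Csnk1e, a circadian casein kinase, rose by a log2 fold change of 0.45 (SE 0.11, adjusted p = 0.0362), and Gtpbp1 fell by 0.44 on the log2 scale (SE 0.09, adjusted p = 0.0201). Rpl3 is the remaining gene of the 4. None of these calls survived leaving out Srebp2WT replicate 1 or replicate 3, where 0 neighbours were called, and without Srebp2cKO replicates 6, 7 and 8 in turn the count was 8, 2 and 1.

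By distance, 0 of 28 other tested genes were called within 1 Mb of Srebf2 in edgeR (6 had an unadjusted p under 0.05, and DESeq2 called 0), 1 of 19 at 1 to 2 Mb and 3 of 26 at 2 to 3 Mb. Farther out on chromosome 15, 3 of 41 were called at 3 to 5 Mb, 10 of 97 at 5 to 10 Mb and 20 of 231 beyond 10 Mb. Absolute log2 fold changes of at least 1 among these called genes numbered 0 up to 5 Mb, 4 at 5 to 10 Mb and 9 beyond. These bins leave out the 9 chosen genes, all called with changes of that size. Of those, 2 lie within 1 Mb, 1 at 1 to 2 Mb and 6 at 2 to 3 Mb. Within 3 Mb the 0 thus reflects how the genes were chosen, and it does not mean that large changes are absent there. The median absolute log2 fold change was 0.12 within 1 Mb, 0.10 at 1 to 2 Mb and 0.22 at 2 to 3 Mb, against 0.18 over all tested genes.

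**Figure D3:**
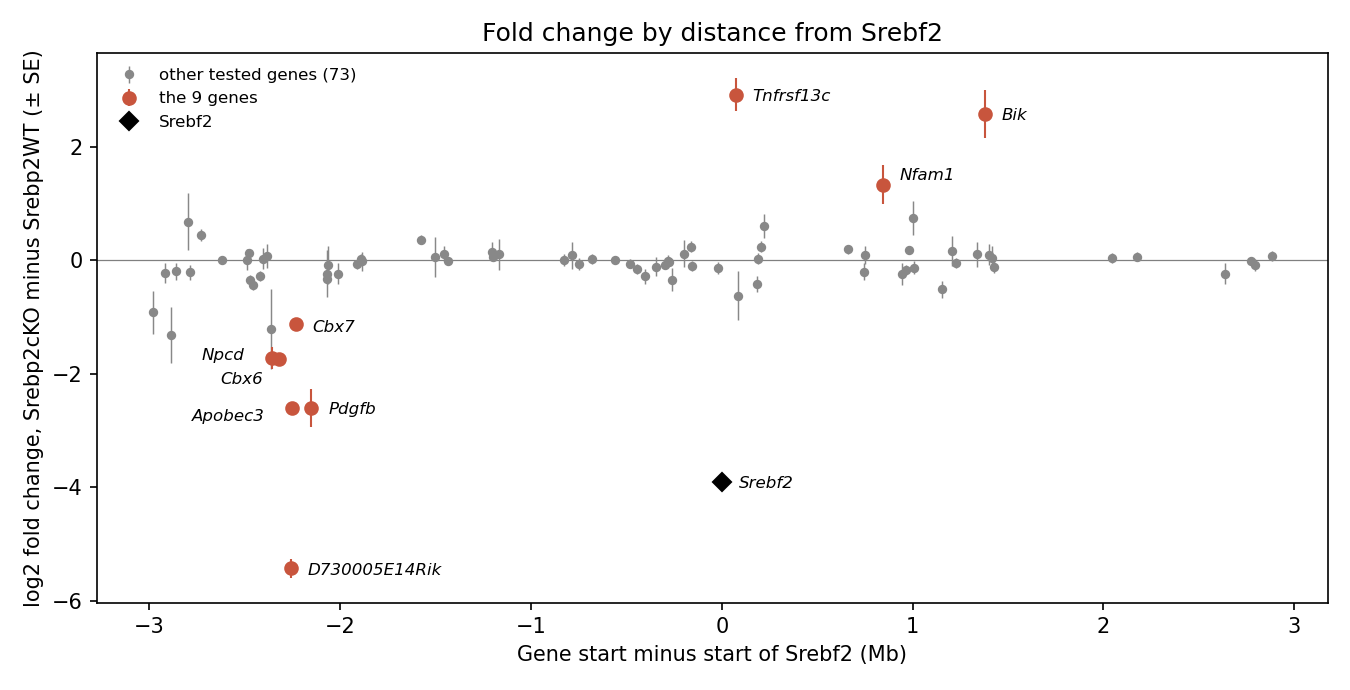
Log2 fold change (Srebp2cKO minus Srebp2WT, ± SE) against distance of the gene start from the start of Srebf2 in Mb, for the 9 genes, Srebf2 and 73 other tested genes within 3 Mb. The 6 lower genes sit together at -2.36 to -2.15 Mb, the 3 higher ones between 0.07 and 1.38 Mb, and no other gene between Npcd and Bik but Srebf2 reaches 1 in size.

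Relatives of the 9 genes, among them Nptxr beside Npcd and Yaf2 farther along chromosome 15, mostly did not pass. Over 11 lists of families and pathways, written from textbook knowledge and with the 9 genes left out, 1 of 83 tested genes rose and 9 fell (12% called, against 6.61% of all tested genes), with a median log2 fold change of -0.06. That count was 1 without Srebp2WT replicate 1 or replicate 3 and 16 without Srebp2cKO replicate 6. Above and below, counts with an unadjusted p under 0.05 and DESeq2 calls stand beside edgeR counts. DESeq2 called 1404 of the 11932 tested genes. The share of all tested genes with an unadjusted p under 0.05 is not given here, so nothing is read from those counts.

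Among 18 other tested PRC1 genes, 2 fell and 0 rose (median log2 fold change 0.03). Pcgf2, a core ring-finger partner, fell from 8.03 ± 0.679 to 4.46 ± 0.427 CPM (-0.84, adjusted p = 0.0222), and Kdm2b, a CpG island reader of a variant PRC1, fell by 0.40 on the log2 scale (adjusted p = 0.0257). The calls of Pcgf2 and Kdm2b were kept in 3 and 2 of 6 fits that left out a library. The chromodomain subunits Cbx2 and Cbx8 had log2 fold changes of -0.07 and -0.04 (adjusted p = 0.718 and 0.883). None of 11 PRC2 genes passed in edgeR (median 0.08), where 3 had an unadjusted p under 0.05 and DESeq2 called 1. Of the cell cycle inhibitors that Polycomb is known to silence, Cdkn2a had 5 and 2 counts summed over the 3 libraries of Srebp2WT and Srebp2cKO, and Cdkn2b had 7 and 7. None of the 4 tested inhibitors passed in edgeR (median log2 fold change 0.12), and DESeq2 called 0. Only Cdkn2c had an unadjusted edgeR p under 0.05 (353 and 207 summed counts, log2 fold change -0.76, adjusted p = 0.0940).

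Among relatives of Apobec3, the RNA-editing deaminase Apobec1 (log2 fold change -0.50, adjusted p = 0.0523) and Apobec2 (-0.82, adjusted p = 0.0733) did not pass, though both had an unadjusted p under 0.05 and DESeq2 called 1 of them. Apobec4 had 0 counts. No gene passed in edgeR among 12 other retroviral restriction factors (median -0.08), where 6 had an unadjusted p under 0.05 and DESeq2 called 0. They include Samhd1 (0.20), Bst2 (-0.44), Mov10 (-0.26) and the RNA sensor kinase gene Eif2ak2 (-0.30).

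In the BAFF system, none of 8 tested genes besides Tnfrsf13c passed in edgeR (median -0.28), where 5 had an unadjusted p under 0.05 and DESeq2 called 2. Tnfrsf13b, the related receptor TACI, stood at 10.6 ± 1.66 and 8.27 ± 0.205 CPM (adjusted p = 0.161), and Tnfsf13b, the ligand BAFF itself, at 2.00 ± 0.248 and 1.34 ± 0.575 CPM (adjusted p = 0.295). Tnfrsf17, the receptor of plasma cells, had 0 counts in all libraries. Of genes downstream of the receptor, Map3k14 (0.01), Nfkb2 (-0.29) and Relb (-0.52) did not pass.

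Of 13 ITAM adaptors, kinases and NFAT factors besides Nfam1, 5 fell and 0 rose. Lyn, a Src kinase of B and myeloid cells, had 96, 48 and 71 counts in Srebp2WT and 2, 16 and 27 in Srebp2cKO (log2 fold change -2.28, SE 0.50, adjusted p = 0.0279). Its call was lost without Srebp2WT replicate 1 or 3 or without Srebp2cKO replicate 7. Nfatc1, an NFAT factor of activated T cells, fell by 0.55 on the log2 scale (adjusted p = 0.0177), Nfatc2 by 0.31 (adjusted p = 0.0327), the T cell kinase Zap70 by 0.45 (adjusted p = 0.0408) and the B cell receptor chain Cd79b by 0.68 (adjusted p = 0.0492). With the trend of log2 CPM on transcript GC content removed, Nfatc2, Zap70 and Cd79b did not pass (adjusted p = 0.0906, 0.111 and 0.0750).

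None of the 6 other BH3-only genes passed in edgeR (median log2 fold change -0.10), where 1 had an unadjusted p under 0.05 and DESeq2 called 0. Bcl2l11, which encodes BIM, the BH3-only protein best known for Treg and T cell death, had a log2 fold change of 0.21 (adjusted p = 0.353). Among 8 multidomain BCL2 proteins, which BH3-only proteins bind, Bcl2 rose by a log2 fold change of 0.52 (adjusted p = 0.0180), and Bcl2l2, another survival protein, fell from 13.2 ± 1.41 to 4.83 ± 0.840 CPM (-1.45, adjusted p = 0.00129). The death effector Bak1 fell by 0.41 on the log2 scale (adjusted p = 0.0257, and 0.173 with the GC trend removed). Of the PDGF genes, Pdgfa, Pdgfc, Pdgfd and Pdgfra had 0 counts and Pdgfrb had 1 and 2 counts summed over the libraries of each genotype, so Pdgfb was the sole member of its family to be tested.

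**Figure D4:**
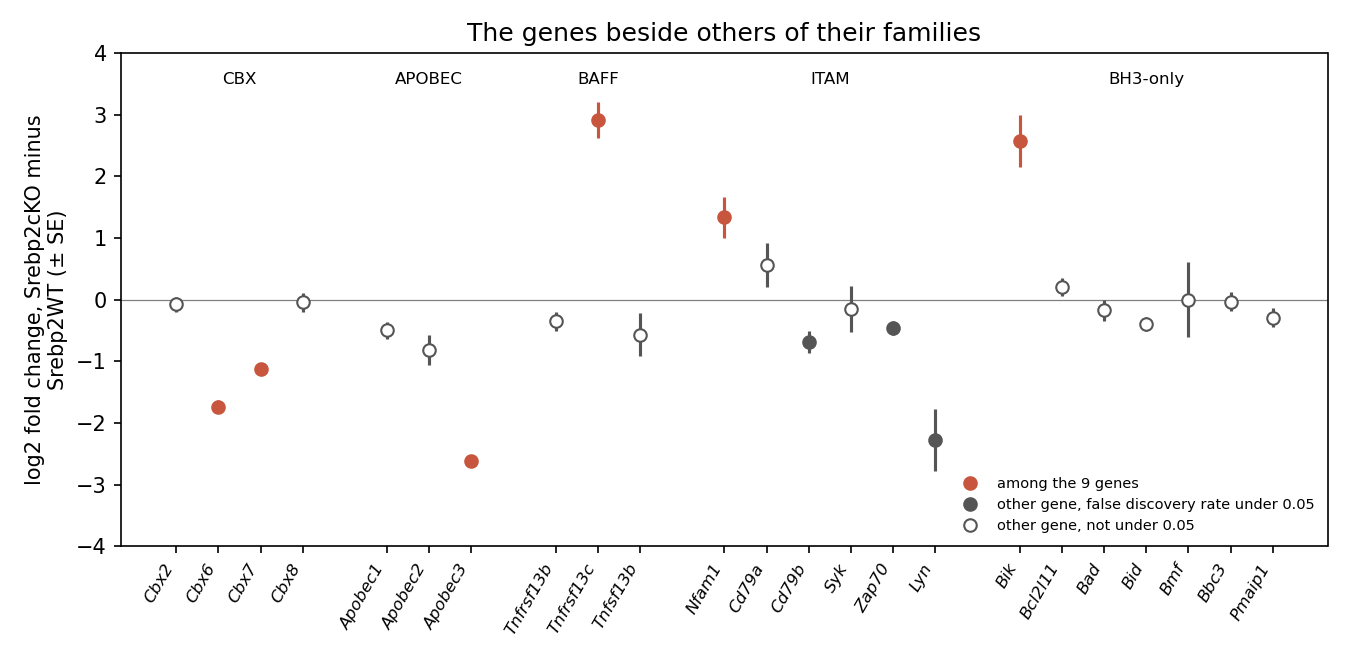
Log2 fold change (Srebp2cKO minus Srebp2WT, ± SE) of Cbx6, Cbx7, Apobec3, Tnfrsf13c, Nfam1 and Bik beside relatives; filled symbols passed a false discovery rate of 0.05. Among the relatives plotted, Cd79b, Zap70 and Lyn passed and the others (open symbols) did not.

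Tnfrsf13c and Nfam1 are best known from B and myeloid cells, and the summed markers of these cells stood lower in Srebp2cKO. Summed B cell markers (11 genes in the table) were 79.7, 56.6 and 56.8 CPM in Srebp2WT and 29.2, 25.8 and 34.7 in Srebp2cKO, and summed myeloid markers (11 genes) were 85.2, 53.5 and 50.9 and then 33.3, 33.7 and 39.8. Both sums were lower in Srebp2cKO without overlap (exact permutation p = 0.1 for each). Of the 4 B cell markers with enough counts to test, 3 fell, namely Cd22 (561 and 197 counts summed over each genotype, log2 fold change -1.52, adjusted p = 0.0101), Cd74 and Cd79b. The remaining marker, Cd79a, went the other way on 31 and 46 counts and did not pass (log2 fold change 0.56, edgeR adjusted p = 0.308). The defining B cell gene Ms4a1 was near 0, with 4 and 0 counts summed over each genotype, as were the myeloid genes Cd14 (1 and 3), Csf1r (3 and 7) and Lyz2 (11 and 6). Csf3r, S100a8 and S100a9 had 0 counts. Cd74 and Cybb made up most of these sums, and both fell (log2 fold change -1.14 and -0.87, adjusted p = 0.00441 and 0.0216). Itgam, a myeloid integrin, had 44 and 93 counts (log2 fold change 1.07, adjusted p = 0.108).

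Platelets and endothelium are known sources of Pdgfb. Summed platelet markers were 2.31 to 2.83 CPM in Srebp2WT and 1.65 to 2.49 in Srebp2cKO (6 genes, exact permutation p = 0.2), with Pf4, Ppbp and Gp1ba at 0. Summed endothelial and stromal markers were 168 to 181 and 217 to 231 CPM (9 genes, exact permutation p = 0.1), nearly all from Pecam1, which T cells also express, while Cdh5, Kdr and Tek had at most 1 count in each genotype. Summed CD8 T cell and natural killer cell markers were 11.7 to 13.2 and 12.6 to 16.2 CPM (6 genes, exact permutation p = 0.3), with Ncr1 and Klra8 at 0. Its members went both ways: Klrb1c fell (93 and 36 counts, log2 fold change -1.36, adjusted p = 0.0399), Cd8a was under the count filter with 7 and 29 counts, and Eomes had 148 and 231 (0.66, adjusted p = 0.170). The part of these cells in the changes of the 9 genes was not tested.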

How the data were processed

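Per the labels' protocols, RNA was purified on Qiagen RNeasy columns, and ribosomal RNA was depleted during KAPA HyperPrep library construction. The authors deposited raw counts per gene symbol, whole numbers in 1 column for each of 6 libraries. Columns were matched to samples by title. The submitters' processing notes name HISAT2 2.2.1, mm10 and Cell Ranger with no role; no source used here states the counting tool, annotation or strand setting.

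Genes were kept by filterByExpr, scaled with TMM and compared by genotype, with no covariate, in edgeR 4.0.16 (R 4.3.3) by its quasi-likelihood test, with Benjamini-Hochberg adjustment over 11932 genes and a false discovery rate of 0.05. SE is the log2 fold change divided by the square root of F. The fit was tested on simulated data. Every pair of libraries of 1 genotype differed beyond counting noise (chi-square over its degrees of freedom 6.98 to 36.9). Each library was taken as 1 replicate, though this spread cannot show whether libraries came from separate animals. Single values were compared by exact two-sided permutation. Counting intervals are exact binomial at 95%.

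Positions, exon overlaps and GC came from GENCODE M21 (GRCm38, 23376 symbols), with positions of 265 more symbols from RefSeq, and promoter windows from RefSeq. The members and gene lists were chosen with earlier results of these data known. Named were the members, Srebf2, their nearest tested neighbours, called genes nearby (up to 6 in each direction), called list genes (up to 4 a list) and paralogs. Other genes serve as examples and were chosen after their values were seen. Alternatives were DESeq2 1.42.0, limma-voom (limma 3.58.1), scaling by RLE, upper quartile or totals, no filter, a filter of 1 CPM in 3 libraries, robust dispersion, removal of a loess trend (span 0.3) on GC, a false discovery rate of 0.1, and leaving out each library.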

Additional observations from a re-analysis of the deposited data

How the results depend on the processing

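All 9 genes kept their direction in every one of 135 values from 15 other settings, leave-one-out fits included, and their absolute log2 fold change stayed at or above 1 except for Cbx7 with the GC trend removed (-0.95). That setting also moved Npcd (-1.42) and Srebf2 (-3.69) toward 0. All settings refit the libraries in which the genes were chosen, or all but 1 of them. A kept direction is therefore no independent support. Leaving out a library gave ranges of 2.19 to 3.14 for Bik, -2.91 to -2.42 for Pdgfb and 1.14 to 1.62 for Nfam1, the 3 genes with fewest counts. The call of Nfam1 was lost in 5 of these 6 fits and kept in the 9 other settings.

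The background count depended more on settings. Of 789 genes called (283 higher, 506 lower), no filter gave 1205 (473 higher), DESeq2 1404 (626 higher, 778 lower) and a false discovery rate of 0.1 gave 1893 (861 higher, 1032 lower). Total-count scaling gave 184 higher. Leaving out each library gave 167 to 1487 called, 29 to 700 higher and 135 to 787 lower. For neighbours within 3 Mb (4 called), the count was 9 at a false discovery rate of 0.1, 1 among the nearest 30 tested genes on each side, and 0 to 8 without a library. For the related lists (10 called), it was 16 with DESeq2, 23 at a false discovery rate of 0.1, and 1 to 16 without a library. The cause of these shifts was not tested. Of 21 called genes named besides the members and Srebf2, 3 kept their call in all 6 fits that left out a library, and 0 changed sign. Nptxr and Cenpm had no value under the filter of 1 CPM. No paired analysis was possible because the genotypes share no replicate number. With 3 libraries a genotype, counts under about 20 limit Tnfrsf13c, Nfam1 and Bik in Srebp2WT and Pdgfb in Srebp2cKO.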
